A study of Mus musculus with 15 samples.

Results

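CD138+ and GL7+ B cells from the same stimulated cultures were compared under DMSO, the solvent of the study's drug, to describe how RNA levels differ between antibody-secreting and activated cells without drug. Members were all genes with at least 1 RPKM (reads per kilobase of gene, scaled to a total of 1000000 reads assigned to genes) in at least 3 of the 6 libraries, 10178 of 21761 genes in the table. Of the 11583 genes not tested, 5997 were at 0 in all 6 libraries. Of those tested, 9486 reached 1 RPKM in every library, 150 in the 3 CD138+ libraries and no GL7+ library, 144 in the 3 GL7+ libraries and no CD138+ library, and 398 in another pattern. The 150 and 144 genes passed through the group where they are high, so the filter by itself fixed that their groups differ.

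The whole series holds 15 libraries of splenic B cells of female C57BL/6J mice, 3 in each of 5 groups. CD43-negative B cells were cultured for 3 days with LPS, interleukin 2, interleukin 5 and either DMSO or 250 nM GSK-J4, an inhibitor of the H3K27 demethylases, and a GL7+ and a CD138+ fraction were then enriched with magnetic beads. The groups compared here are CD138+ DMSO, which the labels call plasmablasts, and GL7+ DMSO, which they call activated B cells, with 3 libraries each. Among these 6, libraries with the same replicate number come from the same mouse. Both groups share strain, sex, stimulus, solvent and culture time, come from wild-type mice, and come from bead enrichment, whose purity is not given in the sources used here.

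When B cells are activated through Toll-like receptors they divide, and part of the progeny becomes plasmablasts that secrete antibody. In that switch the transcription factors BLIMP-1 (Prdm1), IRF4 and XBP1 rise, factors that hold B cell identity such as PAX5, BACH2 and BCL6 are lost, and the endoplasmic reticulum (ER) expands under control of XBP1 and the other arms of the unfolded protein response. CD138, the proteoglycan syndecan encoded by Sdc1, marks the secreting cells. The GL7 antibody binds a sialic acid epitope on activated and germinal centre B cells, so no single gene stands for GL7.

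Reads recovered per library ranged from 9676747 to 11636299 in CD138+ DMSO and from 9806767 to 11519359 in GL7+ DMSO, so that 1 RPKM in a gene of median length stood for 26.2 to 31.5 reads. Within a group, log2 values of any 2 libraries correlated across genes with r of at least 0.9946, and between groups r was at most 0.9526. The first principal component separated the fractions and held 88.6% of the variance, and the second held 3.89%. No library of the 6 stood apart from its group.

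The labels were checked against their markers first. Sdc1 (Entrez Gene 20969) had 30.5, 32.1 and 35.3 RPKM in CD138+ cells, against 1.30, 1.54 and 1.26 RPKM in GL7+ cells. Its protein was the handle of the enrichment, so this is a check of the labels and not a result. Prdm1 had 131, 126 and 126 RPKM in CD138+ cells, against 39.5, 35.8 and 36.2 RPKM in GL7+ cells, and Xbp1 797, 826 and 893 RPKM in CD138+ cells, against 198, 210 and 192 RPKM in GL7+ cells. All 3 markers were higher in each CD138+ library than in any GL7+ library. In naive cells of the same study Sdc1 averaged 3.13, Prdm1 1.75 and Xbp1 40.7 RPKM, so GL7+ cells carried more Prdm1 and Xbp1 RNA than naive cells, a difference not tested here.

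The fractions differed in most expressed genes. In limma's moderated test on log2(RPKM + 1), with Benjamini-Hochberg adjustment over the tested genes, 6232 of 10178 genes (61.2%) passed an adjusted p of 0.05, of which 2308 (22.7% of those tested) were higher and 3924 (38.6%) lower in CD138+ cells. The other 3946 genes did not pass. Of the genes that passed, 37.0% were higher, and with median-of-ratios scaling the split was 2904 higher and 3026 lower, or 49.0% higher. The median difference over all tested genes was -0.11 on the log2(RPKM + 1) scale, -0.02 with median-of-ratios scaling and -0.05 with quantile normalization. The medians of gene lists are read against it, and their counts against the 22.7% higher and 38.6% lower. At least 2-fold differences were rarer: 766 genes (7.53%), 428 of them higher (4.21%) and 338 lower (3.32%). With a pseudocount of 0.1 these were 578 higher and 515 lower, and with voom 599 higher and 549 lower. At a pseudocount of 1, 48 genes were at least 4-fold higher and 13 at least 4-fold lower, and 5 at least 8-fold higher and 0 at least 8-fold lower. Groups did not overlap in 7451 genes (73.2%). Differences on this scale understate the change of low genes. In such bulk samples fewer cells of a type and less RNA per cell cannot be told apart.

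Reads were also distributed differently. Genes called higher held 33.7 to 34.8% of the reads of CD138+ libraries, against 19.6 to 20.2% of GL7+ libraries. Genes called lower held 33.5 to 34.4% in CD138+ libraries and 47.5 to 48.0% in GL7+ libraries. Both sets were called from these same libraries, so the direction of these gaps was fixed and only their size is described. With genes ranked by reads, the top 856 to 866 genes held as many reads as all other genes together in CD138+ libraries, and the top 933 to 954 genes did in GL7+ libraries. RPKM are relative to a library's total and give no absolute amount of RNA.

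**Figure D1:**
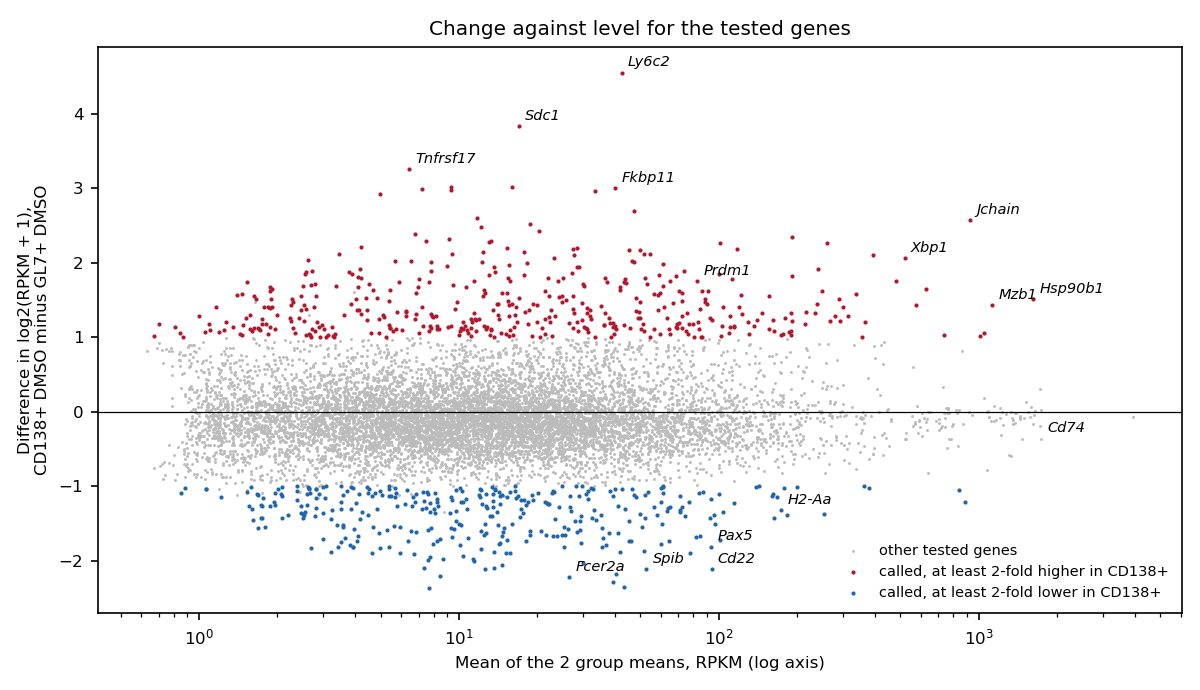
Each point is a tested gene, with the mean of the 2 group means in RPKM on a log axis and the difference in log2(RPKM + 1), CD138+ DMSO minus GL7+ DMSO, on the vertical axis. The upper tail reaches Ly6c2 at 4.55 and Sdc1 at 3.83 and includes abundant genes such as Jchain, Mzb1 and Hsp90b1, and no gene is 8-fold lower.

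The largest difference was that of Ly6c2 (Entrez Gene 100041546), a GPI-anchored surface protein of the Ly6 family. It had 83.9, 79.2 and 83.3 RPKM in CD138+ cells, against 2.38, 2.84 and 2.42 RPKM in GL7+ cells (difference 4.55, SE 0.154, limma adjusted p = 1.9e-11). Its close paralog Ly6c1, which passed the filter through CD138+ cells only, was at 4.82 ± 0.632 RPKM in CD138+ and 0.417 ± 0.123 RPKM in GL7+ cells (SD, n = 3 each), and reads could be split between them. Another Ly6 protein, Ly6a (Sca-1), had 710, 733 and 785 RPKM in CD138+ cells, against 234, 216 and 209 RPKM in GL7+ cells. All 3 genes were higher in every CD138+ library, which for Ly6c2 was a condition of its being named and for Ly6c1 the filter fixed.

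Receptors of the secreting cell stood next. Tnfrsf17 encodes BCMA, the receptor through which APRIL sustains plasma cells. It had 10.4, 13.7 and 13.5 RPKM in CD138+ cells, against 0.427, 0.538 and 0.251 RPKM in GL7+ cells (difference 3.26). Cd28, a receptor better known from T cells and also found on plasma cells, averaged 7.56 RPKM in CD138+ and 0.853 RPKM in GL7+ cells (2.21). Both reached 1 RPKM in CD138+ libraries only, so the filter fixed their direction and their differences are given as values. Of 12 tested genes of the plasma cell surface list 10 were higher, 7 of them at least 2-fold, and 1 was lower, with a median of 1.52. These 12 include Tnfrsf17, Cd28 and Sdc1, the handle of the enrichment. Of the other 9 genes 7 were higher, 4 of them at least 2-fold, and 1 was lower, with a median of 0.74 against -0.11 over all genes. The lower gene was Cd38, an ectoenzyme, at 19.5 ± 0.477 RPKM in CD138+ and 29.2 ± 3.42 RPKM in GL7+ cells. Tnfrsf13b, the TACI receptor of BAFF and APRIL, averaged 145 RPKM in CD138+ and 133 RPKM in GL7+ cells and did not pass (adjusted p = 0.13), though it passed as higher in 6 alternatives. Il13ra1 and Cd63 were below the filter.

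Other genes at the top were of mixed function. Cacna1h, the pore subunit of a T-type calcium channel, averaged 17.4 RPKM in CD138+ and 1.27 RPKM in GL7+ cells (3.02). Evi5, of the family of GTPase-activating proteins for Rab proteins, averaged 29.4 RPKM in CD138+ and 2.75 RPKM in GL7+ cells (3.02). Gpr160, an orphan receptor, stood at 13.6 RPKM in CD138+ and 0.839 RPKM in GL7+ cells (2.99). Hsd11b1, which regenerates active glucocorticoid, stood at 17.4 RPKM in CD138+ and 1.34 RPKM in GL7+ cells (2.98), with 9.02 RPKM in naive cells. The signalling enzyme Pik3cg, catalytic subunit of phosphoinositide 3-kinase gamma, had 57.2, 61.2 and 62.2 RPKM in CD138+ cells, against 7.35, 6.95 and 6.25 RPKM in GL7+ cells. Cox4i2, an isoform of a cytochrome oxidase subunit (9.52 RPKM in CD138+ and 0.405 RPKM in GL7+ cells), Slpi, a secreted protease inhibitor (82.2 RPKM in CD138+ and 12 RPKM in GL7+ cells), and Cpeb3, an RNA-binding regulator of translation (20.9 RPKM in CD138+ and 2.61 RPKM in GL7+ cells), completed the 12 largest with Fkbp11. In each of the 12 every CD138+ library exceeded every GL7+ library. They were taken among genes whose groups do not overlap, so this was fixed and is not a result. For Cox4i2 the filter also fixed the direction.

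Transcription regulators of the plasma cell were mostly higher. Of 11 genes 8 were higher, 7 of them at least 2-fold, and 2 were lower, with a median of 1.45. Differences were 2.06 for Xbp1 (SE 0.094, adjusted p = 1.8e-10), 1.75 for Prdm1 (SE 0.102, 2.2e-09) and 1.45 for Irf4, which had 343, 336 and 372 RPKM in CD138+ cells, against 129, 128 and 125 RPKM in GL7+ cells. Irf4 averaged 211 RPKM in naive cells, above GL7+ and below CD138+ cells. Creb3l2, an ER-anchored transcription factor, had 45.1, 44.9 and 47.3 RPKM in CD138+ cells, against 9.72, 8.90 and 9.10 RPKM in GL7+ cells (2.19, 5e-12). Eaf2, a partner of the elongation factor ELL, stood at 89.1 RPKM in CD138+ and 19.7 RPKM in GL7+ cells (2.12). The elongation factor Ell2 stood at 131 RPKM in CD138+ and 41.9 RPKM in GL7+ cells (1.62). Pou2af1, the coactivator OBF-1 of octamer factors, was already abundant in GL7+ cells and averaged 985 RPKM in CD138+ and 482 RPKM in GL7+ cells (1.03).

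Zbtb32 went the other way. This zinc finger repressor, known from plasma cell studies, had 46.9, 47.3 and 45.2 RPKM in CD138+ cells, against 149, 154 and 162 RPKM in GL7+ cells (difference -1.72, SE 0.089, limma adjusted p = 6.9e-10). Naive cells had 0.955 RPKM, so both cultured fractions were above the naive level and the activated fraction held the most RNA. The other lower gene, Zbtb20, was near the filter at 0.985 RPKM in CD138+ and 1.53 RPKM in GL7+ cells (adjusted p = 0.046), and it missed the threshold in all 6 fits that left out 1 of the compared libraries, with adjusted p up to 0.13. Bhlhe41 did not pass.

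**Figure D2:**
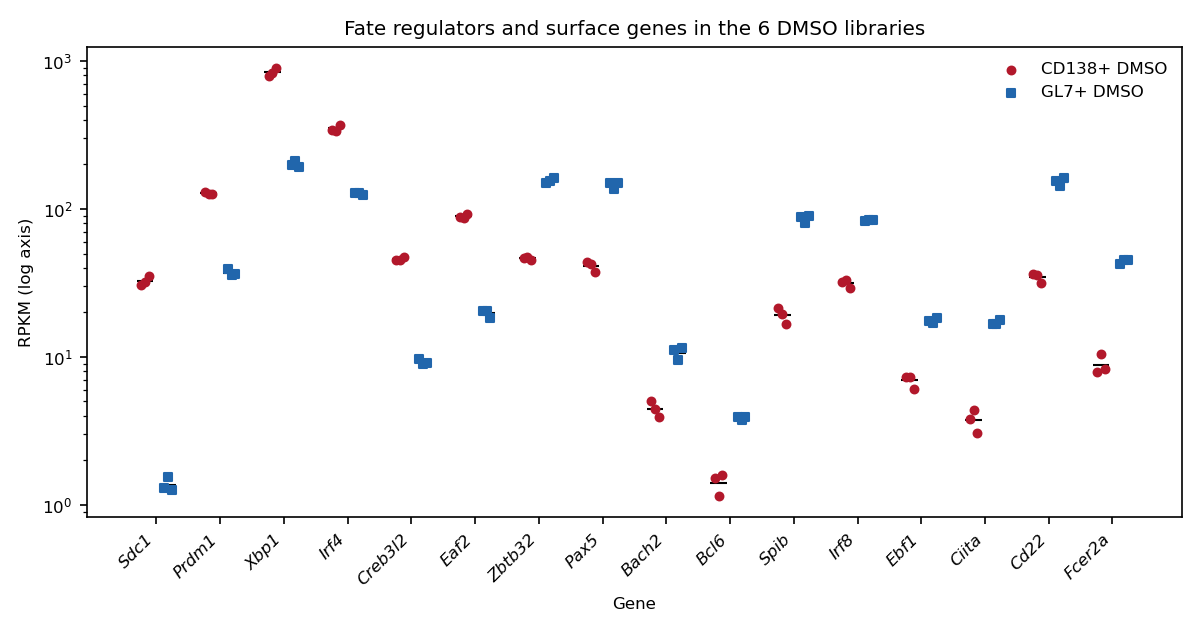
Levels of 16 genes in RPKM on a log axis, with a circle for each CD138+ DMSO library, a square for each GL7+ DMSO library and a line for each group mean. Sdc1, Prdm1, Xbp1, Irf4, Creb3l2 and Eaf2 are higher in all 3 CD138+ libraries, while Zbtb32 and the 9 genes to its right are lower in all 3.

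Factors that hold B cell identity were lower as a group. Of 20 genes 18 were lower, 10 of them at least 2-fold, and none was higher in limma's test, 0 also at an unadjusted p under 0.05 and with voom (median -0.97). Pax5, the commitment factor of the lineage, had 43.6, 42.4 and 37.4 RPKM in CD138+ cells, against 151, 137 and 151 RPKM in GL7+ cells (-1.81, SE 0.102, adjusted p = 1.7e-09). Spib, an Ets factor of B cells, had 21.4, 19.6 and 16.6 RPKM in CD138+ cells, against 88.7, 80.6 and 89.0 RPKM in GL7+ cells (-2.11). Irf8 averaged 31.6 RPKM in CD138+ and 83.8 RPKM in GL7+ cells (-1.38), and Hhex, a homeobox repressor, 6.00 RPKM in CD138+ and 22.8 RPKM in GL7+ cells (-1.76). None of these groups overlapped, as was so in 73.2% of all tested genes.

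Bach2, which restrains Prdm1, had 5.06, 4.44 and 3.90 RPKM in CD138+ cells, against 11.2, 9.46 and 11.4 RPKM in GL7+ cells (-1.10). Bcl6, the germinal centre repressor, was low in both, at 1.51, 1.15 and 1.58 RPKM in CD138+ cells, against 3.94, 3.72 and 3.91 RPKM in GL7+ cells (-1.01). Naive cells averaged 40.6 RPKM of Bach2, 50.4 of Bcl6 and 319 of Pax5, so these were also lower in GL7+ than in naive cells, which was not tested here. Foxo1, a forkhead factor of quiescent and germinal centre B cells, had 27.7, 27.9 and 26.4 RPKM in CD138+ cells, against 28.6, 25.9 and 25.7 RPKM in GL7+ cells, with overlapping groups (difference 0.03, SE 0.060, adjusted p = 0.65). Tcf3, encoding E2A, also did not pass, at -0.07.

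At the surface, 18 of 25 genes of the B cell receptor complex and its signalling were lower, 10 of them at least 2-fold, and 3 higher, with a median of -0.64. The low-affinity IgE receptor CD23 (Fcer2a) had 7.85, 10.4 and 8.24 RPKM in CD138+ cells, against 42.6, 45.1 and 45.5 RPKM in GL7+ cells (-2.22, SE 0.1, adjusted p = 1.8e-10). Cd22, an inhibitory lectin, had 36.4, 36 and 31.6 RPKM in CD138+ cells, against 154, 142 and 162 RPKM in GL7+ cells (-2.11). The phosphatase SHP-1 (Ptpn6) that it recruits averaged 49.9 RPKM in CD138+ and 143 RPKM in GL7+ cells (-1.50), and the adaptor Bank1 12.7 RPKM in CD138+ and 39.8 RPKM in GL7+ cells (-1.57). These 4 genes were lower in every CD138+ library, while groups did not overlap, in either direction, in 73.2% of all tested genes.

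Cd79a, which carries the signal of the receptor, had 509, 544 and 513 RPKM in CD138+ cells, against 604, 587 and 599 RPKM in GL7+ cells, and did not pass (-0.19, adjusted p = 0.094). It passed without naive replicate 2 (0.012) and in a fit of only the 6 libraries (0.00097). Its partner Cd79b was lower at 297 RPKM in CD138+ and 464 RPKM in GL7+ cells (-0.64). The 3 higher genes were the adaptor Blnk (252 RPKM in CD138+ and 174 RPKM in GL7+ cells), the tetraspanin Cd81 (121 RPKM in CD138+ and 84.5 RPKM in GL7+ cells) and the kinase subunit Pik3cd (92.9 RPKM in CD138+ and 73.0 RPKM in GL7+ cells).

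Most genes of antigen presentation by MHC class II were lower. Of 13 genes 11 were lower, 8 of them at least 2-fold, and the median of -1.33 was the lowest of the lists with 7 or more tested members. Ciita, the master coactivator of the class II genes, had 3.81, 4.40 and 3.05 RPKM in CD138+ cells, against 16.6, 16.6 and 17.8 RPKM in GL7+ cells (-1.93, SE 0.112, adjusted p = 2.2e-09). The peptide exchange factors H2-DMb1, H2-DMb2 and H2-DMa were at -1.79, -1.90 and -1.63, and reads of the DMb pair could be shared. The peptide-binding chains changed less, with H2-Aa at -1.32 (99.1 RPKM in CD138+ and 249 RPKM in GL7+ cells) and H2-Ab1 at -1.0 (242 RPKM in CD138+ and 484 RPKM in GL7+ cells).

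Cd74, the invariant chain and the most abundant gene of the list, had 1460, 1590 and 1520 RPKM in CD138+ cells, against 1920, 1950 and 2020 RPKM in GL7+ cells. Its difference of -0.36 (adjusted p = 0.033) missed the threshold with median-of-ratios scaling (0.14) and without CD138+ replicate 1 or 3 or any 1 GL7+ replicate (up to 0.091). The RFX complex subunits Rfxank and Rfxap did not pass. Values of the naive group were 72.2 RPKM for Ciita and 5620 RPKM for Cd74.

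Costimulatory molecules split. Of 13 tested genes 7 were lower and 4 higher (median -0.43), and 5 more were below the filter. Cd86 had 4.23, 4.50 and 3.30 RPKM in CD138+ cells, against 19.1, 18.6 and 19.0 RPKM in GL7+ cells (-2.0, adjusted p = 1.8e-08). Cd80, which shares its receptors, stood at -1.09, Cd40, the receptor of T cell help, at 14.4 RPKM in CD138+ and 41.4 RPKM in GL7+ cells (-1.46), and the activation marker Cd83 at -1.73. Among higher genes Cd274, encoding PD-L1, averaged 14.7 RPKM in CD138+ and 8.37 RPKM in GL7+ cells (0.76). Il2ra, the high-affinity IL-2 receptor chain, averaged 49.4 RPKM in CD138+ and 37.4 RPKM in GL7+ cells (0.39, adjusted p = 0.012, and 0.096 with a pseudocount of 0.1).

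Germinal centre genes and the genes around the GL7 epitope did not move as one. Of 11 tested genes 6 were lower and 3 higher (median -0.43). Il21r averaged 53.4 RPKM in CD138+ and 115 RPKM in GL7+ cells (-1.09). The sialyltransferase St6gal1, which adds alpha-2,6-linked sialic acid, had 246, 270 and 259 RPKM in CD138+ cells, against 122, 127 and 116 RPKM in GL7+ cells (1.08, adjusted p = 1.2e-09). Cmah, the hydroxylase that converts Neu5Ac into Neu5Gc, had 48.6, 44.4 and 47.2 RPKM in CD138+ cells, against 27.2, 24.3 and 28.0 RPKM in GL7+ cells (0.80, 2.2e-07). Both were higher in all CD138+ libraries, and naive cells averaged 65.4 RPKM of Cmah, so its level was lowest in the GL7+ fraction. Of 17 genes of class switching and its repair 10 were lower and 1 higher (median -0.26), with Batf at 44.1 RPKM in CD138+ and 97.9 RPKM in GL7+ cells (-1.13) and Lig4, the ligase of end joining, at 9.75 RPKM in CD138+ and 4.41 RPKM in GL7+ cells (0.99).

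The secretory apparatus was higher, and its antibody assembly factors had the highest median of the lists with 7 or more tested members. Immunoglobulin genes themselves were not analysed here. Of 12 antibody assembly and secretion factors all 12 were higher, 11 of them at least 2-fold, with a median of 1.71. Together they took 1.41 ± 0.0387% of reads in CD138+ libraries and 0.402 ± 0.0143% in GL7+ libraries (SD, n = 3 each). Jchain, which joins antibody units into polymers, had 1610, 1530 and 1640 RPKM in CD138+ cells, against 272, 284 and 244 RPKM in GL7+ cells (2.57, SE 0.080, adjusted p = 1.1e-11). Mzb1, a chaperone of IgM assembly, had 1610, 1650 and 1670 RPKM in CD138+ cells, against 626, 644 and 568 RPKM in GL7+ cells (1.43). On the per-length RPKM scale Mzb1 and Jchain were thus nearly level in CD138+ cells, while Mzb1 was ahead in GL7+ cells. The prolyl isomerase Fkbp11 stood at 72.0 RPKM in CD138+ and 8.14 RPKM in GL7+ cells (3.00) and the disulfide isomerase Txndc5 at 635 RPKM in CD138+ and 148 RPKM in GL7+ cells (2.10).

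Most genes of the unfolded protein response were higher. Of 24 genes 21 were higher, 12 of them at least 2-fold, and none was lower in limma's test, 0 also at an unadjusted p under 0.05 and with voom (median 0.98). Their share of reads was 2.68 ± 0.0655% in CD138+ libraries and 1.29 ± 0.0270% in GL7+ libraries. Hsp90b1 (GRP94), a chaperone of the ER lumen, had 2370, 2330 and 2500 RPKM in CD138+ cells, against 844, 860 and 823 RPKM in GL7+ cells (1.51, SE 0.076, adjusted p = 5.7e-10). By RPKM it was second only to Eef1a1 in CD138+ cells among the genes given values. No immunoglobulin gene was among the 15 highest there, so ranks and read shares hold only for the genes given. Creld2, a stress-induced ER protein, led by difference with 374, 379 and 396 RPKM in CD138+ cells, against 101, 104 and 96.4 RPKM in GL7+ cells (1.92). Hspa5 (BiP) averaged 1100 RPKM in CD138+ and 624 RPKM in GL7+ cells, a smaller difference of 0.82. The groups did not overlap in any of the 3, as in 73.2% of all tested genes.

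The sensors of the 3 branches of the response were all higher. The sensor IRE1 (Ern1), which splices Xbp1 RNA, averaged 23.2 RPKM in CD138+ and 7.96 RPKM in GL7+ cells (1.43), PERK (Eif2ak3) stood at 0.55 and Atf6 at 86.5 RPKM in CD138+ and 59.5 RPKM in GL7+ cells (0.53). Downstream of PERK, Atf4 had 299, 304 and 308 RPKM in CD138+ cells, against 304, 329 and 307 RPKM in GL7+ cells, and Ddit3 (CHOP) 18.7, 20 and 19.0 RPKM in CD138+ cells, against 23.5, 21.6 and 21.7 RPKM in GL7+ cells. Neither passed in the fit of all 15 libraries (adjusted p = 0.4 and 0.12). Ddit3 passed as lower (-0.20) without naive replicate 2, which shares the variance estimate (adjusted p = 0.046), and in a fit of only the 6 libraries (0.0072), and Atf4 with quantile normalization (-0.13, 0.0027). Of 17 targets of ATF4 6 were higher and 4 lower (median 0.09), with Pycr1, of proline synthesis, at 1.60 and Chac1, which degrades glutathione, at 1.40, but Atf3, a stress-induced factor, at -1.84 and Trib3, a pseudokinase, at -0.74. Atf6 is counted among the plasma cell regulators.

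Promoters of unfolded protein response genes are shown, with that of Derl3, which is counted among the antibody assembly factors. The classical ER stress response element (ERSE) can be read in them beside the differences. The letters searched on both strands were CCAAT and CCACG with 9 bases of any kind between them, in the 250 bases before and 50 bases after each start site of the RefSeq promoter table of build GRCm38.p6, which held 8119 of the tested genes. Capitals mark the element, printed 5′ to 3′ on the strand of the gene, and an element on the other strand appears as its reverse complement.
Creld2, chr15:88819500-88819558, plus strand: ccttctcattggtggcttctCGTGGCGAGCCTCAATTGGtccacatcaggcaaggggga
Derl3, chr10:75893222-75893280, plus strand: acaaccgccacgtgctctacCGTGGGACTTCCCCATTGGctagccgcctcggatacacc
Hsp90b1, chr10:86705618-86705676, minus strand: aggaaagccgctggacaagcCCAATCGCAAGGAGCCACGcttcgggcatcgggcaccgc
Hsp90b1, chr10:86705513-86705571, minus strand: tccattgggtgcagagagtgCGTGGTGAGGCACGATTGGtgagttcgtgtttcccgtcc
Hspa5, chr2:34772005-34772063, plus strand: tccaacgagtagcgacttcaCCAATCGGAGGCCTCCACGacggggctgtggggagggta
Canx, chr11:50325780-50325838, minus strand: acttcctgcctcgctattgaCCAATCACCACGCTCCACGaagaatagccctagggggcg

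The element was in 17 of 8119 genes (0.209%), and 8 of 21 unfolded protein response genes with a promoter held it (38.1%). Of the 17 genes 10 were higher and 3 lower, and 7 were at least 2-fold higher, with a median of 0.82 against -0.11 over the 8119 genes. Of those 8119 genes 1841 were higher and 3182 lower, and 333 were at least 2-fold higher. Creld2 and Derl3, an ER degradation factor (175 RPKM in CD138+ and 50.3 RPKM in GL7+ cells, 1.78), were the 2 with the largest differences, and Hsp90b1 held a pair of elements. Canx, the chaperone calnexin, also holds one, yet it had 252, 249 and 255 RPKM in CD138+ cells, against 226, 235 and 227 RPKM in GL7+ cells and did not pass (0.13, adjusted p = 0.1). It passed without naive replicate 2 (0.039) and with median-of-ratios scaling (0.0091). A motif of XBP1, TGACGTGG, also searched on both strands, was in 85 genes (1.05%), of which 40 were higher and 18 lower (median 0.16). It was in 12 of 333 genes at least 2-fold higher (3.60%), in 0 of 249 at least 2-fold lower and in 5 of 23 COPII, COPI and Golgi genes (21.7%). A composite Ets and IRF motif, GGAA and GAAA with 2 bases of any kind between them, was in 228 genes (2.81%), with 3.00% of the genes at least 2-fold higher and 3.21% of those at least 2-fold lower. A match describes these letters only and is no evidence of binding.

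Genes of entry into the ER were higher as well. Of 29 genes of translocation and N-glycosylation 28 were higher, 14 of them at least 2-fold, and 1, the signal peptidase subunit Sec11a, did not pass (adjusted p = 0.09, 0.0037 without naive replicate 2 and 0.0023 in a fit of only the 6 libraries). The median was 1.00. Their share of reads was 1.58 ± 0.0441% in CD138+ libraries and 0.748 ± 0.0293% in GL7+ libraries. The signal peptidase subunit Spcs1 had 129, 133 and 152 RPKM in CD138+ cells, against 44.0, 47.3 and 41.8 RPKM in GL7+ cells (1.62, SE 0.071, adjusted p = 1.4e-10). Sec61a1, the channel itself, averaged 254 RPKM in CD138+ and 105 RPKM in GL7+ cells (1.26). The 2 catalytic subunits of oligosaccharyltransferase differed in the size of their change: Stt3a, which acts during translocation, averaged 376 RPKM in CD138+ and 161 RPKM in GL7+ cells (1.22), while Stt3b, which acts later, stood at 0.18.

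So were genes of vesicle traffic between ER and Golgi. Of 28 genes 27 were higher, 11 of them at least 2-fold (median 0.88), with 1.03 ± 0.0279% of reads in CD138+ libraries and 0.558 ± 0.0122% in GL7+ libraries. The cargo adaptors of the COPII coat were unlike each other. Sec24d had 89.6, 95.2 and 93.6 RPKM in CD138+ cells, against 25.4, 25.4 and 25.0 RPKM in GL7+ cells (1.84, SE 0.054, adjusted p = 6.2e-12). Sec24a averaged 37.7 RPKM in CD138+ and 10.4 RPKM in GL7+ cells (1.76) and Sec24c stood at 0.42. Sec24b was the 1 lower gene, with 15.8, 17.1 and 17.1 RPKM in CD138+ cells, against 20.6, 18.9 and 19.6 RPKM in GL7+ cells (-0.23, adjusted p = 0.0035, and 0.07 with median-of-ratios scaling). The cargo lectin Lman1 averaged 183 RPKM in CD138+ and 61.1 RPKM in GL7+ cells (1.57). The retrieval receptors Kdelr3, Kdelr1 and Kdelr2 stood at 2.03, 1.41 and 1.23.

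**Figure D3:**
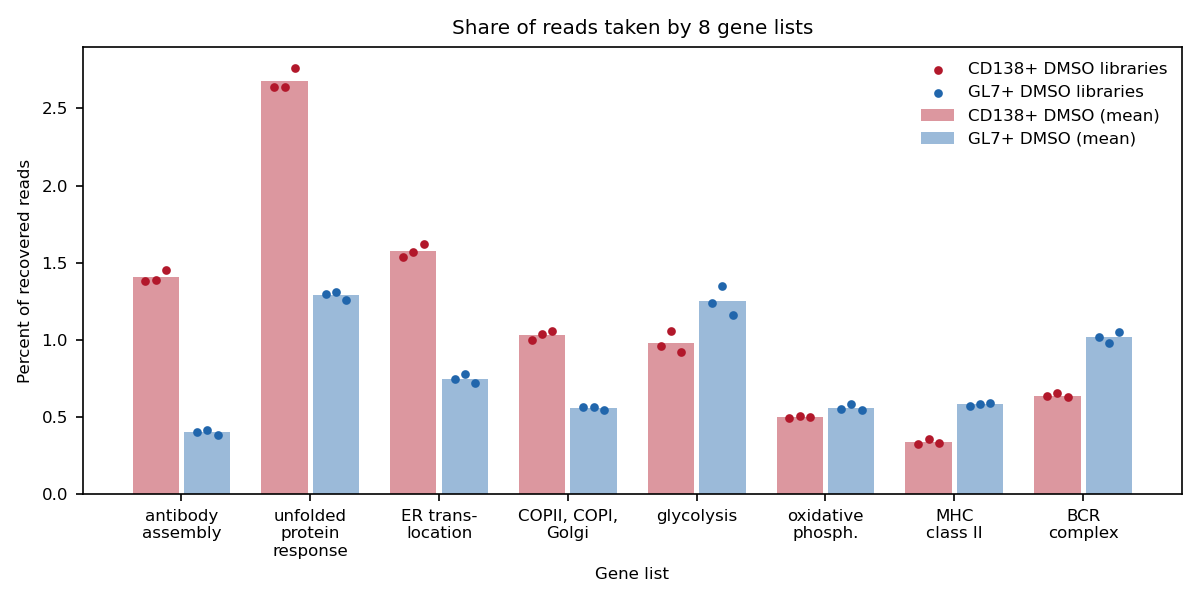
Share of recovered reads, in percent, taken by 8 gene lists, as bars of the group mean with a point for each library, CD138+ DMSO left of GL7+ DMSO. The 4 secretory lists on the left take more in all CD138+ libraries, and the 4 lists on the right take less on average.

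Most amino acid transporters were higher. Of 12 tested transporters 8 were higher and 2 lower (median 0.52), and the 2 became 1 without CD138+ replicate 1 or GL7+ replicate 2. The heavy chain Slc3a2 and its partner Slc7a5, which import large neutral amino acids, averaged 147 RPKM in CD138+ and 82.2 RPKM in GL7+ cells (0.83) and 244 RPKM in CD138+ and 159 RPKM in GL7+ cells (0.62). The glutamine transporter Slc1a5 stood at 174 RPKM in CD138+ and 103 RPKM in GL7+ cells (0.75), and Slc38a10, of the same broad class, at 1.39. The taurine transporter Slc6a6 was lower at 20.4 RPKM in CD138+ and 35.0 RPKM in GL7+ cells (-0.75).

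In the list of MYC and ribosome biogenesis 14 of 20 tested members were lower and 4 higher (median -0.47), none 2-fold, and the 4 became 2 without CD138+ DMSO replicate 1 or 3 or GL7+ DMSO replicate 1. The nucleolar methyltransferase fibrillarin (Fbl) averaged 127 RPKM in CD138+ and 201 RPKM in GL7+ cells (-0.66), Nop56 126 RPKM in CD138+ and 211 RPKM in GL7+ cells (-0.74) and nucleophosmin (Npm1) 795 RPKM in CD138+ and 1360 RPKM in GL7+ cells (-0.78). Myc itself had 32.6, 30.2 and 33.8 RPKM in CD138+ cells, against 26.0, 26.6 and 28.5 RPKM in GL7+ cells, a difference of 0.24 (adjusted p = 0.027). It missed the threshold without CD138+ replicate 1 or 3 or GL7+ replicate 1 or 2, with adjusted p up to 0.095.

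Of 18 genes of glycolysis and lactate 14 were lower and 1 higher (median -0.36). Lactate dehydrogenase (Ldha) had 602, 692 and 601 RPKM in CD138+ cells, against 855, 960 and 828 RPKM in GL7+ cells (-0.48, adjusted p = 0.00023). Replicate 2, from 1 mouse, was highest in both groups. The higher gene was hexokinase 2 (Hk2) at 30.2 RPKM in CD138+ and 23.9 RPKM in GL7+ cells (0.33), whereas hexokinase 1 (Hk1) was lower at 11.2 RPKM in CD138+ and 16.9 RPKM in GL7+ cells (-0.55). Of 20 genes of oxidative phosphorylation 8 were lower, a share near the 38.6% over all tested genes, and none higher in limma's test, with 0 higher at an unadjusted p under 0.05 and 1 with voom (median -0.11, the median of all genes), led by Sdha at -0.39, and with median-of-ratios scaling the counts were 3 lower and 3 higher. Without GL7+ replicate 2 there were 6 lower and 2 higher, and without CD138+ replicate 1 there were 8 lower and 1 higher. Of 21 genes of cholesterol and fatty acid synthesis 14 were lower and 1 higher (median -0.29), with Mvd at -0.76 and Insig1, the sterol-sensing brake on SREBP, at 196 RPKM in CD138+ and 116 RPKM in GL7+ cells (0.75).

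The 2 cell cycle lists had no common direction. S phase genes took 0.472 to 0.477% of reads in CD138+ libraries and 0.505 to 0.519% in GL7+ libraries. G2 and M phase genes took 0.729 to 0.739% in CD138+ libraries and 0.602 to 0.632% in GL7+ libraries. Their RPKM summed to 1480 to 1500 in CD138+ and 1350 to 1390 in GL7+ libraries. This includes Mki67, given below, so the gap need not be shared by the list. Of 23 S phase genes 5 were higher and 10 lower (median -0.00), shares near the 22.7% and 38.6% over all tested genes. With median-of-ratios scaling 9 were higher and 6 lower (median 0.09), and with quantile normalization 8 were higher and 10 lower (median 0.04). The ribonucleotide reductase subunit Rrm1 averaged 89.9 RPKM in CD138+ and 121 RPKM in GL7+ cells (-0.42), and the flap endonuclease Fen1 94.2 RPKM in CD138+ and 67.7 RPKM in GL7+ cells (0.47). Of 20 G2 and M phase genes 15 did not pass, 3 were higher and 2 lower (median 0.01), and in a fit of only the 6 libraries 5 were higher and 4 lower. Mki67, the antigen Ki-67, had 283, 274 and 274 RPKM in CD138+ cells, against 173, 154 and 175 RPKM in GL7+ cells (0.73, SE 0.135, adjusted p = 0.00027), and Foxm1, a mitotic transcription factor, averaged 45.8 RPKM in CD138+ and 30 RPKM in GL7+ cells (0.59). Bub1, a spindle checkpoint kinase, was lower (-0.45, adjusted p = 0.0029, and 0.19 with a pseudocount of 0.1).

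Inhibitors of the cycle and D cyclins, counted as 1 list, went both ways, 4 higher and 4 lower of 11 (median 0.15). The lower share was near the 38.6% over all tested genes, of which 22.7% were higher. Cdkn2c, the inhibitor p18 that is known to act in plasma cell differentiation, averaged 22.2 RPKM in CD138+ and 12.1 RPKM in GL7+ cells (0.82), and Cdkn2b 7.93 RPKM in CD138+ and 3.22 RPKM in GL7+ cells (1.08). Cdkn1a (p21) had 9.64, 8.60 and 9.01 RPKM in CD138+ cells, against 8.89, 10.2 and 8.25 RPKM in GL7+ cells, with overlapping groups (0.00, SE 0.182, adjusted p = 1). The antiproliferative factor Btg1 was lower at 10.7 RPKM in CD138+ and 40.3 RPKM in GL7+ cells (-1.82), and its relative Btg2 higher at 47.5 RPKM in CD138+ and 26.3 RPKM in GL7+ cells (0.83). Of the D cyclins, Ccnd2 stood at 250 RPKM in CD138+ and 171 RPKM in GL7+ cells (0.55) and Ccnd3 at 5.21 RPKM in CD138+ and 7.99 RPKM in GL7+ cells (-0.54).

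Genes of inflammatory signalling were lower. Of 17 NF-kB subunits and targets 16 were lower, 6 of them at least 2-fold, and none was higher in limma's test, 0 also at an unadjusted p under 0.05 and with voom (median -0.88). Tnf had 2.72, 2.06 and 2.29 RPKM in CD138+ cells, against 12.8, 14 and 16.7 RPKM in GL7+ cells (-2.20, SE 0.202, adjusted p = 2.6e-07). The lymphotoxin gene Ltb averaged 11.8 RPKM in CD138+ and 39.4 RPKM in GL7+ cells (-1.66), and the subunits Rel, Nfkb1 and Nfkb2 were at -1.23, -0.98 and -0.89. The feedback inhibitors Nfkbia (-0.35) and Tnfaip3 (-0.40) were lower too. Ebi3 did not pass. Among 16 immediate early genes 9 were lower and 4 higher (median -0.48). Egr1 had 102, 74.9 and 87.6 RPKM in CD138+ cells, against 241, 205 and 271 RPKM in GL7+ cells (-1.43). Fos had 24.9, 18.7 and 27.2 RPKM in CD138+ cells, against 23.5, 20.5 and 26.8 RPKM in GL7+ cells and its groups overlapped (adjusted p = 0.96).

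Of 17 genes of Toll-like receptors and LPS sensing 9 were lower and 7 higher (median -0.29, and -0.10 without Tlr6, which passed the filter through GL7+ cells only). The DNA sensor Tlr9 had 2.89, 2.20 and 1.68 RPKM in CD138+ cells, against 10.3, 9.77 and 13.6 RPKM in GL7+ cells (-1.91), and Tlr1 averaged 5.25 RPKM in CD138+ and 22.0 RPKM in GL7+ cells (-1.88). The RNA sensor Tlr7 was higher at 40.3 RPKM in CD138+ and 27.6 RPKM in GL7+ cells (0.53). Tlr4, the receptor of LPS, had 4.35, 4.89 and 4.66 RPKM in CD138+ cells, against 4.45, 4.52 and 3.90 RPKM in GL7+ cells, with overlap (0.09, adjusted p = 0.38). Ly86, which pairs with Cd180, averaged 40 RPKM in CD138+ and 129 RPKM in GL7+ cells (-1.67).

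Of 16 cytokine and TNF family receptors 7 were higher and 7 lower, against 22.7% higher and 38.6% lower over all tested genes. The median of these receptors, -0.02, had no stable sign and was 0.07 with median-of-ratios scaling or quantile normalization. Il5ra had 15.1, 15.3 and 14.8 RPKM in CD138+ cells, against 3.62, 4.43 and 3.82 RPKM in GL7+ cells (1.70, SE 0.071, adjusted p = 9.9e-11). Its signalling chain Csf2rb averaged 103 RPKM in CD138+ and 41.6 RPKM in GL7+ cells and the mouse paralog Csf2rb2 22.5 RPKM in CD138+ and 8.61 RPKM in GL7+ cells (1.29 both, and their reads could be shared). Il6st, the shared chain gp130 of IL-6 receptors, stood at 19.5 RPKM in CD138+ and 5.56 RPKM in GL7+ cells (1.64), while Il6ra did not pass (-0.12). Of the receptor chains of IL-2, which was also added, Il2ra was higher as given above, Il2rb was higher at 6.26 RPKM in CD138+ and 3.91 RPKM in GL7+ cells (0.56), and Il2rg was lower at 83.2 RPKM in CD138+ and 103 RPKM in GL7+ cells (-0.30). On the lower side were also Il10ra (10.9 RPKM in CD138+ and 36.9 RPKM in GL7+ cells, -1.67), Il4ra (-0.90) and the BAFF receptor Tnfrsf13c (74.1 RPKM in CD138+ and 130 RPKM in GL7+ cells, -0.81).

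Migration genes changed in both directions, 11 lower and 4 higher of 16 tested (median -0.49), with Ccr10 among the higher through its CD138+ level only. Ccr7, a lymphoid homing receptor, averaged 10 RPKM in CD138+ and 33.2 RPKM in GL7+ cells (-1.66), and the follicle receptor Cxcr5 49.9 RPKM in CD138+ and 80.0 RPKM in GL7+ cells (-0.67). Cxcr4, the receptor for CXCL12 that draws plasma cells to bone marrow, had 98.6, 103 and 102 RPKM in CD138+ cells, against 31.4, 29.0 and 27.5 RPKM in GL7+ cells (1.75, limma adjusted p = 1.1e-11). Itga4, a subunit of the integrin VLA-4, averaged 71.0 RPKM in CD138+ and 27.4 RPKM in GL7+ cells (1.34). Naive cells averaged 443 RPKM of Cxcr4, above both cultured fractions.

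Survival genes of the BCL2 family differed in opposite directions. Bcl2 had 7.76, 6.78 and 6.29 RPKM in CD138+ cells, against 19.9, 19.7 and 20 RPKM in GL7+ cells (-1.40, SE 0.097, adjusted p = 1.4e-08). Bcl2l1, which encodes BCL-XL, had 42.7, 46.6 and 44.8 RPKM in CD138+ cells, against 17.1, 19.3 and 15.6 RPKM in GL7+ cells (1.32). Mcl1, on which plasma cells depend, averaged 243 RPKM in CD138+ and 177 RPKM in GL7+ cells (0.45). Of 13 apoptosis regulators tested 5 were higher and 6 lower (median -0.16), against 22.7% higher and 38.6% lower over all tested genes. Among the lower regulators were the BH3 genes Bid (-0.82) and Pmaip1 (-0.74).

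Chromatin genes that the study's drug concerns differed less than 2-fold. Kdm6a (UTX), an H3K27 demethylase, had 29.2, 27.6 and 26.3 RPKM in CD138+ cells, against 23.6, 23.2 and 20.8 RPKM in GL7+ cells (0.29, SE 0.082, adjusted p = 0.0072). Kdm6b (JMJD3), the other target, had 4.34, 4.26 and 3.75 RPKM in CD138+ cells, against 7.85, 5.73 and 9.05 RPKM in GL7+ cells (-0.72, SE 0.110, 4.9e-05). The 2 demethylases thus differed in opposite directions. Their groups did not overlap, as in 73.2% of all tested genes. Ezh2, the methyltransferase of H3K27, had 94.1, 91.9 and 90.4 RPKM in CD138+ cells, against 114, 110 and 109 RPKM in GL7+ cells (-0.26, 5.7e-05), and its partner Eed averaged 35.4 RPKM in CD138+ and 52.1 RPKM in GL7+ cells (-0.55).

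Of 23 genes that write, bind or erase H3K27 methylation 10 were lower and 5 higher (median -0.20), with the scaffold Phc2 at -0.76. These shares were near those over all tested genes, 38.6% lower and 22.7% higher. Of 7 tested genes of DNA methylation 5 were lower and none higher in limma's test, 0 also at an unadjusted p under 0.05 and with voom (median -0.34). They included the de novo methyltransferase Dnmt3a at 3.50 RPKM in CD138+ and 7.51 RPKM in GL7+ cells (-0.92) and Uhrf1, which guides maintenance methylation, at 75.3 RPKM in CD138+ and 113 RPKM in GL7+ cells (-0.57).

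Interferon response genes had no common direction, with 7 higher and 5 lower of 15 (median 0.16). All tested genes were 22.7% higher and 38.6% lower. Zbp1, a nucleic acid sensor, averaged 57.3 RPKM in CD138+ and 15.8 RPKM in GL7+ cells (1.80), and Irf7, the regulator of type I interferon, had 19.8, 24.9 and 29.3 RPKM in CD138+ cells, against 6.31, 5.47 and 7.18 RPKM in GL7+ cells (1.80). Gbp2, a GTPase induced by interferon, had 14.9, 11.4 and 11.4 RPKM in CD138+ cells, against 80.1, 57.2 and 59.7 RPKM in GL7+ cells (-2.29, SE 0.244, adjusted p = 1.3e-06). Replicate 1 was the highest of its group in both fractions. Of 16 autophagy genes 7 were higher and 2 lower (median 0.12), and the 2 became 1 without CD138+ replicate 2. Wipi1, which binds forming autophagosomes, averaged 13 RPKM in CD138+ and 1.90 RPKM in GL7+ cells (2.29). Tfeb, the lysosomal transcription factor, was lower at 10.7 RPKM in CD138+ and 20.3 RPKM in GL7+ cells (-0.87).

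**Figure D4:**
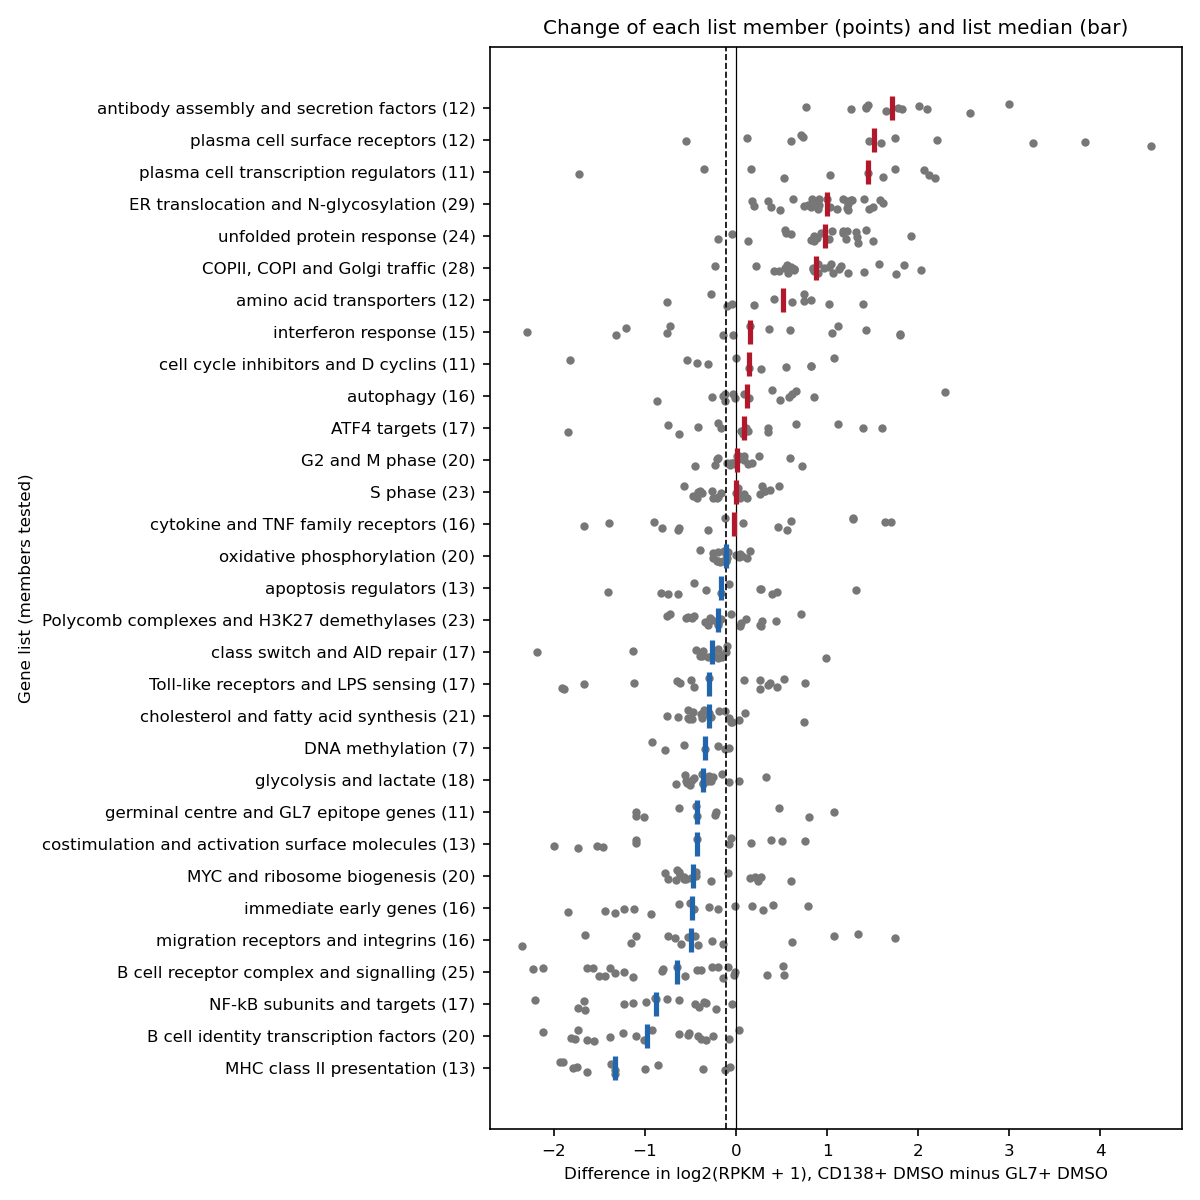
Difference in log2(RPKM + 1), CD138+ DMSO minus GL7+ DMSO, for each tested member (points) and the median (bar) of the lists with at least 7 tested members; the dashed line is the median of all tested genes. Antibody assembly and regulator genes have medians of 1.71 and 1.45, and MHC class II lies lowest at -1.33. The plasma cell surface list, at 1.52, includes Sdc1 and 2 genes that passed the filter through CD138+ cells only, and stands at 0.74 without them.

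Genes at the low end beyond these lists included cytoskeletal and membrane genes. Gsn, the actin-severing protein gelsolin, had 2.21, 2.19 and 2.07 RPKM in CD138+ cells, against 12.6, 11.5 and 13.4 RPKM in GL7+ cells (-2.09), and Evl, an actin regulator, averaged 5.03 RPKM in CD138+ and 24.2 RPKM in GL7+ cells (-2.06). Mpeg1, which encodes the pore-forming perforin-2, stood at 4.63 RPKM in CD138+ and 22.8 RPKM in GL7+ cells (-2.09), and B3gnt5, a glycolipid glycosyltransferase, at 4.15 RPKM in CD138+ and 21.1 RPKM in GL7+ cells (-2.11). The lowest value, -2.36, was that of Snord35b, a small nucleolar RNA of 86 bases that rests on 1 to 2 reads in CD138+ libraries and 8 to 16 reads in GL7+ libraries.

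Markers of other cells were few. The T cell receptor genes Cd3e, Cd3d and Cd3g were at or near 0 (at most 0.202 RPKM). Of 10 T cell markers Lck (-1.10, through its GL7+ level only) and Cd2 (0.53) were tested, and the 10 summed to 80.0 to 86.0 RPKM in CD138+ and 56.3 to 62.1 RPKM in GL7+ libraries. None of 8 NK cell markers reached the filter, with summed levels of 0.329 to 1.15 RPKM in CD138+ and 0.386 to 0.821 RPKM in GL7+ libraries. The 10 myeloid markers summed to 7.09 to 9.88 RPKM in CD138+ and 12.7 to 16.8 RPKM in GL7+ libraries, with S100a8 and Mpo at 0, and Itgam and Cd68 were lower and Lyz2 higher (1.89 RPKM in CD138+ and 0.320 RPKM in GL7+ cells). Itgam and Lyz2 each passed the filter through the group where they are higher. The 7 dendritic cell markers summed to 10.8 to 12.1 RPKM in CD138+ and 33.7 to 34.8 RPKM in GL7+ libraries, nearly all of it Flt3 (9.78 RPKM in CD138+ and 31.6 RPKM in GL7+ cells). Erythroid and platelet markers summed to 1.47 to 2.03 RPKM in CD138+ and 5.61 to 6.85 RPKM in GL7+ libraries. Stromal and endothelial markers summed to 11.2 to 13.3 RPKM in CD138+ and 34.3 to 36.2 RPKM in GL7+ libraries, of which Pecam1 was 12.2 RPKM in CD138+ and 34.6 RPKM in GL7+ cells. Their part in the differences above was not tested.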

How the data were processed

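Bulk mRNA sequencing of 15 libraries was used, of which 6 are compared here and the other 9 help estimate the spread. The authors deposited 1 table of RPKM values, per the file headers, for 21761 genes and every library. Reads were aligned with TopHat2 to mouse build mm9, per the submitters' processing notes, while the sources used here name no counting tool, annotation or strand setting, so overlapping, antisense and near-identical genes cannot be separated. Multiplied by gene length in kilobases, the RPKM of each library add up to 1000000, so values are relative to reads assigned to these genes. No mm9 genome was used, so gene coordinates in that build are not given.

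Whole reads were recovered from the steps of low values, within 0.1 read, for voom as an alternative and for the depths. The members and gene lists were chosen with earlier results of these data known. Genes at 1 RPKM or more in at least 3 of the 6 libraries entered limma 3.58.1 (R 4.3.3) on log2(RPKM + 1), with 1 mean per group over all 15 libraries, trended variance and Benjamini-Hochberg adjustment over 10178 genes at 0.05. A 2-fold difference is 1 or more on this log2 scale. The fit was tested on simulated data. An exact permutation test of 3 against 3 cannot go below 0.1, so none was used. Replicates are mice, since the labels give the same mouse number to the fractions of 1 culture. Deviations from the group means correlated at 0.106, 0.211 and 0.05 between fractions of the same mouse and at -0.183 to 0.087 between different mice. The mouse was an alternative block, not part of the reported fit. One CD138+ GSK-J4 library carries the number 4, which no other library has. It was matched to its group only, enters the shared spread, and has a block level of its own, so it adds nothing to the blocked fit.

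Genes were named as the 12 largest differences in each direction, among those without overlap whose higher group averaged 5 RPKM or more, 10 regulators, and up to 4 members of each of 37 lists with the smallest adjusted p. Other list members given by name were chosen after their values were seen, and some genes the rule took are not reported here. Alternatives were the block, the 6 or the 12 cultured libraries alone, a pseudocount of 0.1, no filter or 5 RPKM, median-of-ratios and quantile scaling, voom, and leaving out single libraries. Promoters came from RefSeq (GRCm38.p6). Figures were drawn with matplotlib 3.10.9.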

Additional observations from a re-analysis of the deposited data

Results flagged for a closer look

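For 13 named genes the difference between CD138+ and GL7+ cells was not the same under GSK-J4 as under DMSO, by limma's test of the interaction over all tested genes, which 108 genes passed and 34 passed with the mouse as a block. One of the 3 CD138+ GSK-J4 libraries, numbered 4, was matched to its group only and enters these means, and in the fit with the block it adds nothing, because no other library shares its number. No explanation was tested for them.

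In 9 genes that were lower in CD138+ cells under DMSO the gap was wider under GSK-J4. The interaction (GSK-J4 minus DMSO, log2 scale) was -1.18 for Spib, where CD138+ cells averaged 5.91 and GL7+ cells 65.7 RPKM under GSK-J4 (adjusted p = 0.016, and 0.015 with the block). It was -1.0 for Cd22 (11.5 RPKM in CD138+ and 105 RPKM in GL7+ cells, 0.023, and 0.07 with the block), -0.77 for Fcer2a (1.76 RPKM in CD138+ and 20.9 RPKM in GL7+ cells, 0.021 and 0.058) and -0.72 for Pax5 (20.3 RPKM in CD138+ and 120 RPKM in GL7+ cells, 0.029 and 0.061). H2-DMb1 stood at -0.65 (0.014 and 0.058), Cd83 at -0.65 (0.02 and 0.062), Bank1 at -0.48 (0.031 and 0.11) and Mybbp1a at -0.31 (0.042 and 0.037). The ninth was Ezh2 at -0.27 (0.04 and 0.11), with 93.7 RPKM in CD138+ and 136 RPKM in GL7+ cells under GSK-J4.

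In 4 genes the gap was narrower under GSK-J4. Creld2 had an interaction of -0.45 (417 RPKM in CD138+ and 150 RPKM in GL7+ cells under GSK-J4, adjusted p = 0.02, and 0.027 with the block) and Il5ra of -0.50 (12.4 RPKM in CD138+ and 4.85 RPKM in GL7+ cells, 0.029 and 0.076). Egr1 had an interaction of 1.26, since CD138+ and GL7+ cells averaged 147 and 166 RPKM under GSK-J4 (0.0073 and 0.0017), and Junb one of 0.74 (33.9 RPKM in CD138+ and 44.6 RPKM in GL7+ cells, 0.0063 and 0.027). Only 5 of the 13 passed with the block: Spib, Creld2, Mybbp1a, Egr1 and Junb.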

How the results depend on the processing

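Of 158 genes that the naming rule took 152 kept their direction and call under all alternatives that tested them, and 5 called genes (Bub1, Kif20a, Atp5c1, Dnmt1 and Fcgr3) lost the call in at least 1. Of other genes given by name, Cd74, Il2ra, Myc, Sec24b and Zbtb20 also lost it in at least 1, and Atf4, Canx, Cd79a, Ddit3, Sec11a and Tnfrsf13b gained one. Counts of genes past the threshold ran from 5059 with at least 5 RPKM to 7170 in a fit of only the 6 libraries with replicate block, against 6232. Leaving out 1 of the 6 libraries gave 5638 to 5846. Naive replicate 2, which is not compared but shares the variance estimate, had 2636004 reads, and without it 6794 genes passed. With the replicate block 6280 genes passed, 6110 of them shared, and among the list members it lost 1 call, Slc16a1 (adjusted p = 0.074). Genes at least 2-fold lower numbered 515 with a pseudocount of 0.1 and 549 with voom, against 338, both of which shrink low genes less. Some medians changed sign. That of S phase went to 0.09 with median-of-ratios scaling and to 0.04 with quantile normalization. For cytokine and TNF family receptors (-0.02) it was 0.07 with median-of-ratios scaling or quantile normalization and 0.08 with at least 5 RPKM. It was 0.02 without GL7+ DMSO replicate 1 and 0.05 without CD138+ DMSO replicate 1. G2 and M phase went to -0.02 without GL7+ DMSO replicate 1 (the range without single libraries was -0.02 to 0.03). T cell markers went to 0.53 with at least 5 RPKM, where 1 gene is left. S phase, at -0.00, also took either sign without single libraries. The cause of the changes in the first 3 lists was not tested. With 3 libraries per group, and below about 1 RPKM, small differences were not detectable at this depth, and levels relative to a library total cannot show absolute RNA.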

Other observations

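Gene families outside the lists above were chosen by their names after their values were seen, so they carry no test as families. Of 14 tested golgin and Cog genes, which tether vesicles at the Golgi, 9 were higher and 1 lower, with a median difference of 0.45 against -0.11 over all genes. Rab GTPases, which direct vesicle traffic, had 14 higher and 14 lower of 43 (median -0.05, and 0.03 with median-of-ratios scaling). Numbered zinc finger genes (Zfp) had 43 higher and 70 lower of 243 (median -0.08). Of 30 galactosyl, N-acetylglucosaminyl and sialyl transferases, which build the glycans of secreted and surface proteins, 16 were higher and 6 lower (median 0.25), and they took 0.415 ± 0.00709% of reads in CD138+ and 0.273 ± 0.00534% in GL7+ libraries (SD, n = 3 each). Nucleotide sugar transporters of the Slc35 family had 10 higher and 2 lower of 20 (median 0.21), and subunits of the V-ATPase, which acidifies the Golgi and lysosomes, 8 higher and 4 lower of 14 (median 0.23).

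Families of protein synthesis and degradation had medians of -0.27 to 0.06 and unlike counts. Over all tested genes 22.7% were higher and 38.6% lower. Of 81 cytoplasmic ribosomal protein genes 2 were higher and 7 lower, and their median of -0.07 became 0.03 with median-of-ratios scaling. They took 6.25 ± 0.0158% of reads in CD138+ and 6.52 ± 0.188% in GL7+ libraries. Of 76 mitochondrial ribosomal protein genes 37 were lower and 7 higher (median -0.20), and of 41 proteasome subunits 19 were lower and 1 higher (median -0.14). The mitochondrial ribosomal genes took 0.306 ± 0.00429% of reads in CD138+ and 0.348 ± 0.0119% in GL7+ libraries. The proteasome subunits took 0.703 ± 0.00328% in CD138+ and 0.753 ± 0.0179% in GL7+ libraries. Cytosolic tRNA synthetases had 7 higher and 2 lower of 18 (median 0.06). The FKBP isomerases had 5 lower and 2 higher of 9 (median -0.27), the 2 higher being the ER members Fkbp11 and Fkbp2.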
